A study of Mus musculus with 6 samples.

Results

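Nanog, Rex1 (official symbol Zfp42) and 8 other pluripotency factors were followed in the RNA-seq of WT and Oct6 KO EpiLCs. They were chosen by name, and each was found in the count table by matching its Ensembl identifier to the GENCODE mouse gene names, giving 10 genes of the 55416 listed. Of these, 6 are here called naïve-restricted, Nanog, Zfp42, Tfcp2l1, Tbx3, Fbxo15 and Tcl1, and 4 general pluripotency genes, Sall1, Sall4, Utf1 and L1td1. These are working names. Nanog is also expressed in stem cells of the later epiblast, and no naïve library was sequenced, so restriction to the naïve state was not measured. In WT EpiLCs, Zfp42 and Fbxo15 stood above Utf1, Sall4 and Sall1 per kb of canonical transcript, as given below. The filter on low counts left 15746 genes, and all 10 were among them.

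EpiLCs, epiblast-like cells, are the formative cells into which naïve mESCs turn on leaving 2i + LIF, and Oct6 (official symbol Pou3f1) is a POU-domain transcription factor induced on the way. The study asked how loss of Oct6 affects that transition. WT EpiLCs were made from the 46C line, a mESC line that carries a GFP reporter of the neural gene Sox1, and KO EpiLCs from 1 CRISPR/Cas9 clone of that line, homozygous for an insertion of a single nucleotide next to the Oct6 start codon. Cells of both genotypes were differentiated for 48 h on fibronectin, in N2B27 to which KSR (a serum replacement), bFGF and Activin A had been added, and each genotype was sequenced as 3 replicates that the submitters describe as paired. With 1 clone, the effect of the insertion and other differences of that clone cannot be told apart.

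Naïve pluripotency is held by a network of transcription factors that activate each other and themselves. Nanog is the member best known for sustaining self-renewal when its level is raised, and Zfp42 is the classical reporter gene of the naïve state. As mESCs become formative, the naïve factors fall while the core factors Oct4 and Sox2 and a wider group of pluripotency genes stay on, and Nanog rises again in the later, primed state.

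POU factors such as OCT6 are known to bind an octamer, ATGCAAAT, and SOX factors the letters CATTGT. The sequences before the starts of Nanog and Zfp42 are shown. Both genes differed between the genotypes, and among members with a promoter entry they were the ones with a match. Tcl1 also differed and had an entry, but it held no match and is not shown. Whether a match goes with a change was not tested. Promoters were taken from RefSeq (GRCm38.p6, 250 bases before to 50 after each start), which held 10 entries for 7 of the 10 genes, and each was placed on GRCm39 by an exact match. The stretch for Nanog lies at chr6:122684198-122684447 on the plus strand and ends at the base before the first RefSeq start. Exons of 5 GENCODE transcripts of Nanog reach into this stretch, so it does not lie before every annotated start. The stretch for Zfp42 lies at chr8:43760153-43760296 on the minus strand and ends at the base before the start of the GENCODE canonical transcript. Capitals mark matches, on either strand, to the octamer, to its first 7 letters (ATGCAAA, a search added after the sequences had been seen) or to the SOX letters.
Nanog: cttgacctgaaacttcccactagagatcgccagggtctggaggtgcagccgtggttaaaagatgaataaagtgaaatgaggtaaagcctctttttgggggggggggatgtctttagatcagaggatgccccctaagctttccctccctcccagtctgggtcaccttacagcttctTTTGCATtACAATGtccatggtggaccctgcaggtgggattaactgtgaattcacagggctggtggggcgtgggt
Zfp42: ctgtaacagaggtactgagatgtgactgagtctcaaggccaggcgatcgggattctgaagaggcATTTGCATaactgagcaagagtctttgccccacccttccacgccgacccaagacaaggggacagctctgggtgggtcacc
In the stretch before Nanog, the 7-letter core lay on the minus strand 75 bases before the start, and the SOX letters lay beside it, 67 bases before the start, after a gap of 1 base. Zfp42 had the whole octamer on the minus strand and no SOX match. The octamer was found in 570 of the 32851 promoters of the table (1.74%), the 7-letter core in 1520 (4.63%) and the SOX letters in 4129 (12.6%). The pair first planned, the whole octamer with the SOX letters within 3 bases of it, was found in 1 promoter (0.00304%), not one for Nanog. The core with the SOX letters within 3 bases of it was found in 6 (0.0183%), among them both entries for Nanog, which overlap and hold the same site. Because the core was added after the Nanog sequence had been seen, its share is no evidence about Nanog. None of these letters was found in the promoters of Tfcp2l1, Tcl1, Sall1, Utf1 or L1td1. Tbx3, Sall4 and Fbxo15 had no entry. A match of letters is a description of the sequence, and binding was not measured in these data.

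Library totals ran from 10995505 to 14680930 counts, and levels are given in CPM, the counts relative to the library total after TMM scaling. The frameshift leaves the transcript of Pou3f1 in place, and its level was 142 ± 19.4 CPM in WT and 132 ± 7.59 CPM in KO (SD, n = 3 each, log2 fold change −0.10, adjusted p = 0.574), so gene counts do not check the genotype. The 6 genes of the EpiLC list were present in every library and summed to 2690 to 2990 CPM in WT and 2630 to 2790 CPM in KO. Most of this was Dnmt3b (1280 to 1640 CPM) and Pou5f1 (751 to 940 CPM). Pou5f1 and Sox2 stay on from the naïve state, so they do not set EpiLCs apart from it. Of the 6 genes, 3 were called higher and 0 lower. Fgf5 was between 59.0 and 115 CPM and Otx2 between 58.5 and 169 CPM, both higher in KO, as was Sox2. Dnmt3b (log2 fold change −0.19, adjusted p = 0.206), Pou3f1 and Pou5f1 were not called. Markers of other cells were then summed. The 6 primitive endoderm genes summed to 6.11 to 8.06 CPM in WT and 6.17 to 17.6 CPM in KO, with 2 of 4 tested called higher, and the 5 primitive streak genes to 6.16 to 6.49 and 8.79 to 11.8 CPM, with Eomes higher. For 4 genes of the 2-cell-like state the sums were 25.3 to 48.7 and 29.1 to 121 CPM, with 3 called higher. The 3 neural genes summed to 40.9 to 45.4 CPM in WT and 15.4 to 16.6 CPM in KO, with Sox1 and Nes called lower, and the 6 trophoblast genes had 83.7 to 104 and 40.7 to 53.7 CPM, most of it Krt8, which was called lower (log2 fold change −1.04). The 4 fibroblast genes summed to 10.2 to 19.8 CPM in WT and 6.54 to 12.2 CPM in KO, with Thy1 called lower. The part of such cells in the results on the 10 genes was not tested. Over all genes tested, edgeR's quasi-likelihood test called 24.3% at an adjusted p below 0.1 (Benjamini-Hochberg), 11.8% higher and 12.5% lower in KO. RNA was taken from whole cultures, so more cells with a transcript and more transcript per cell cannot be told apart.

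In KO EpiLCs, Nanog, Zfp42, Fbxo15 and Tcl1 rose, by 0.37 to 0.92 on the log2 scale, and no gene of the 10 fell. The 4 that rose were all of the naïve-restricted group, 4 of 6. Of the 4 general genes, 0 passed in edgeR or in DESeq2, or had an unadjusted p below 0.05, in either direction. Likewise 0 of the 10 genes were lower at an unadjusted p below 0.05 or in DESeq2. Beside this count of 4 of 10, 11.8% of all genes tested were called higher in KO, and 24.3% were called in either direction. For so few genes, 0 of 4 is near that background, and the groups were not tested against each other. Of 9 other general pluripotency genes, described below, 5 were called higher. No member reached an absolute log2 fold change of 1, the size that 6.21% of all genes passed together with the adjusted p. The median log2 fold change was 0.46 over the naïve-restricted genes and −0.09 over the general genes, against 0.00 over all genes tested.

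**Figure D1:**
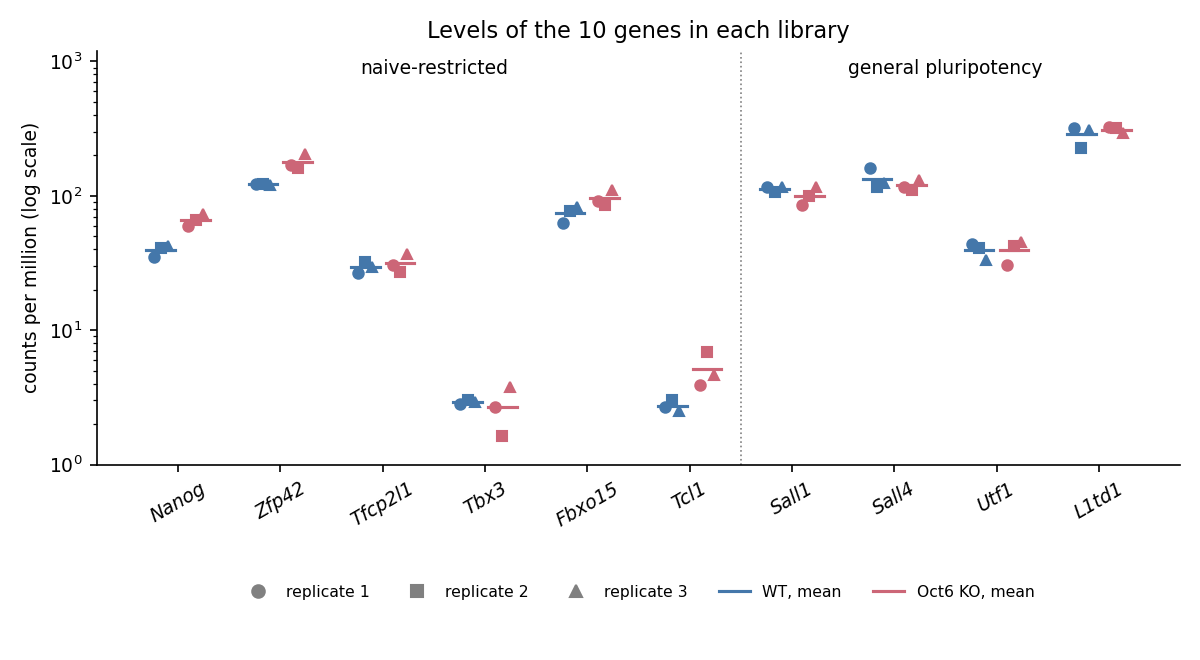
CPM of the 10 genes in each library on a log axis, WT in blue and Oct6 KO in red, with a marker shape for each replicate number and a line at each mean. The KO libraries sit above all WT libraries for Nanog, Zfp42, Fbxo15 and Tcl1, and overlap them for the other 6 genes, where 16.6% of all genes tested had every KO library above every WT library and 33.7% did not overlap in either direction.

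Nanog, the homeobox factor, spans chr6:122679780-122691601 on the plus strand (ENSMUSG00000012396.13). In WT its level was 35.2 CPM in replicate 1, 40.8 in replicate 2 and 42.3 in replicate 3, and in KO it was 60.0, 66.6 and 72.7 CPM in the same order. The lowest KO library therefore stood well above the highest WT library. Means were 39.4 ± 3.72 CPM in WT and 66.4 ± 6.31 CPM in KO (SD, n = 3 each). The log2 fold change was 0.75 ± 0.11 (SE) with an adjusted p of 1.1e-04 by edgeR. The ratio of KO to WT was 1.70, 1.63 and 1.72 in replicates 1, 2 and 3, so that the pairs differed little in the size of the rise. The counts behind these levels ran from 447 to 966 per library. The gene model begins 4707 bases before the start of the canonical transcript, and reads of upstream exons are part of the count. The study itself reports a slight but significant rise of Nanog in KO EpiLCs, by RT-qPCR and at the protein level. It states that its own RNA-seq analysis was too stringent to detect this rise. Its list of changed genes asked for a log2 fold change of at least 1, which Nanog did not reach.

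Zfp42, the zinc finger factor REX1, spans chr8:43743871-43760152 on the minus strand. The WT libraries were close together, with 122, 123 and 121 CPM in replicates 1, 2 and 3, and the KO libraries had 169, 161 and 203 CPM. All KO libraries were above all WT libraries, with KO replicate 3 apart from the other 2. The mean went from 122 ± 1.04 CPM to 177 ± 22.6 CPM (SD, n = 3 each), and the log2 fold change was 0.54 ± 0.10 (SE, adjusted p = 9.0e-04, edgeR). Ratios within the pairs were 1.38, 1.31 and 1.68. The study itself reports no difference in Rex1 between WT and KO EpiLCs at 48 h, without naming the measurement there. Its list of changed genes asked for a log2 fold change of at least 1, which Zfp42 did not reach.

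Fbxo15, an F-box protein gene known as a target of Oct4 and Sox2 and as a reporter in the first reprogramming experiments, lies on chromosome 18. Its 3 WT libraries had 62.8, 77.2 and 81.9 CPM and its 3 KO libraries 92.2, 85.2 and 110 CPM, in the order of the replicates. The groups did not overlap, but the highest WT library came close to the lowest KO library. The log2 fold change was 0.37 ± 0.12 (SE, adjusted p = 0.0326, edgeR), from 74.0 ± 9.98 to 95.9 ± 12.9 CPM (SD, n = 3 each). The call did not hold without WT replicate 1 (0.27, adjusted p = 0.164) or without KO replicate 3 (0.26, adjusted p = 0.199). Fbxo15 overlaps Timm21 on the opposite strand, and whether counting used the strand is not given in the sources used here. Timm21 itself had a log2 fold change of 0.04 (adjusted p = 0.839).

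Tcl1, a co-activator of the kinase Akt that keeps naïve cells proliferating, was expressed at a low level. Its WT levels were 2.69, 3.01 and 2.5 CPM, and its KO levels 3.89, 6.87 and 4.66 CPM, in replicates 1, 2 and 3. KO replicate 2 was the highest, and the groups did not overlap. From 2.73 ± 0.257 to 5.14 ± 1.54 CPM (SD, n = 3 each), the log2 fold change of 0.92 ± 0.27 (SE, adjusted p = 0.0220, edgeR) was the largest among the 10 genes. Without KO replicate 2 it was 0.65 and the call was lost (adjusted p = 0.172).

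The other 2 naïve-restricted genes did not pass the test. Tfcp2l1, a transcription factor of the LIF and Wnt responses, had 26.5, 32.4 and 29.4 CPM in WT and 30.3, 27.2 and 36.9 CPM in KO. The ranges overlapped, and the log2 fold change was 0.10 ± 0.13 (SE, adjusted p = 0.684). Tbx3, a T-box factor downstream of PI3K signalling, had 2.84, 3.01 and 2.91 CPM in WT and 2.67, 1.62 and 3.76 CPM in KO. Its WT libraries were nearly level while its KO libraries held both the lowest and the highest value, and the log2 fold change was −0.12 ± 0.31 (SE, adjusted p = 0.850). With 2 SE either way, the difference ran from −0.17 to 0.37 for Tfcp2l1 and from −0.74 to 0.51 for Tbx3.

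Sall1 and Sall4 encode zinc finger factors that act with the NuRD complex, Sall4 also being a partner of Oct4 and Nanog. Sall1 had 116, 106 and 117 CPM in WT and 85.0, 99.2 and 117 CPM in KO, and Sall4 had 161, 116 and 125 CPM in WT and 117, 110 and 131 CPM in KO. KO replicate 1 was low for Sall1 and WT replicate 1 was high for Sall4, and both genes overlapped between the groups. Log2 fold changes were −0.17 ± 0.11 for Sall1 (SE) and −0.16 ± 0.12 for Sall4 (SE), neither of them called (adjusted p = 0.35 and 0.388).

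Utf1, a chromatin-associated factor, and L1td1, an RNA-binding protein derived from a LINE-1 element, were likewise not called. Utf1 had 44.1, 41.2 and 33.4 CPM in WT and 30.5, 42.0 and 45.2 CPM in KO, and the means of 39.6 ± 5.52 and 39.3 ± 7.72 CPM (SD, n = 3 each) were almost the same, with a log2 fold change of −0.01 ± 0.14 (SE, adjusted p = 0.979). L1td1 had 321, 227 and 311 CPM in WT and 325, 317 and 292 CPM in KO, with WT replicate 2 apart from the rest. Its log2 fold change was 0.12 ± 0.12 (SE, adjusted p = 0.544). KO replicate 3 was the highest of the 6 libraries for 7 of the 10 genes, among them genes that did not pass the test, such as Tfcp2l1, Tbx3 and Utf1. Nanog and Zfp42 kept their calls in each of 6 fits with 1 library left out, KO replicate 3 included, with log2 fold changes from 0.67 to 0.82 and from 0.44 to 0.61.

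**Figure D2:**
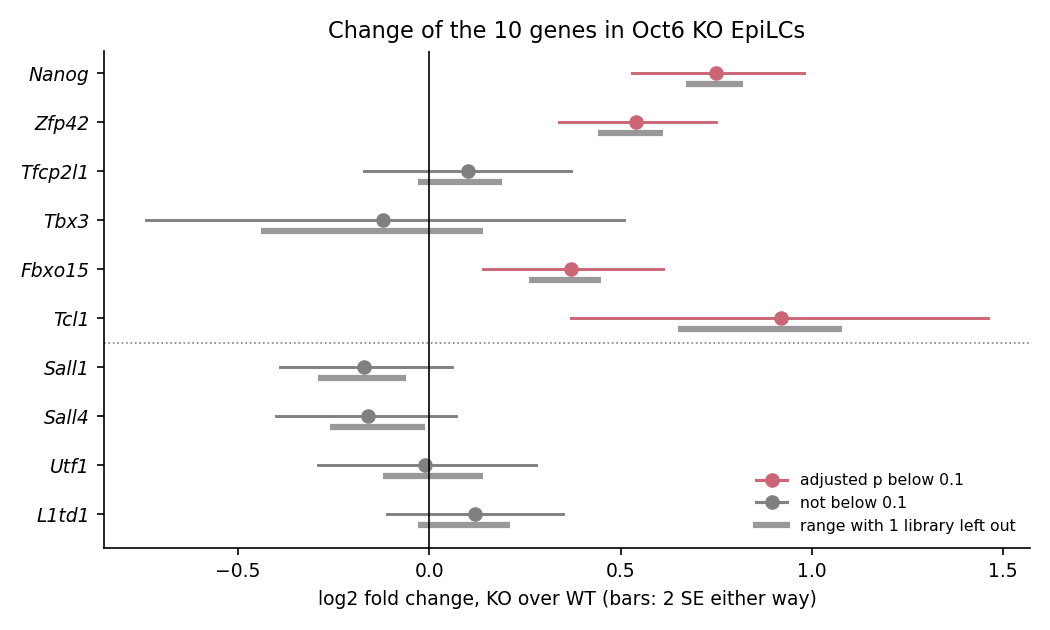
Log2 fold change of each gene, KO over WT, with bars of 2 SE either way, in red where the adjusted p was below 0.1, and a grey bar for the range when each library was left out in turn. The 4 red genes are naïve-restricted, and the general genes lie between −0.17 and 0.12.

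Levels were compared between genes only per kb of the canonical transcript. In WT, L1td1 was highest with 97.3 ± 17.6 CPM per kb, followed by Zfp42 with 63.9 ± 0.547, Fbxo15 with 47.5 ± 6.41 and Utf1 with 30.9 ± 4.31 (SD, n = 3). Next came Sall4 with 25.9 ± 4.61, Sall1 with 20.2 ± 1.04 and Nanog with 17.5 ± 1.65 CPM per kb. Tfcp2l1 with 3.16 ± 0.317, Tcl1 with 1.94 ± 0.182 and Tbx3 with 0.567 ± 0.0171 CPM per kb were far below the others. Among neighbours in this order, the WT libraries overlapped for Utf1 and Sall4 only. In KO, Nanog moved from place 7 to place 5 with 29.5 ± 2.80 CPM per kb, above Sall4 and Sall1 and overlapping Utf1, and Tcl1 with 3.64 ± 1.09 overlapped Tfcp2l1 with 3.38 ± 0.528. The order depends on the length used: GENCODE lists 88 transcripts for Zfp42, and per kb of all its exons Zfp42 was at 11.2 CPM per kb in WT, close to Nanog with 10.7.

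Reads of Zfp42 can be shared with a processed pseudogene. Zfp42-ps1 lies at chr15:93577041-93577530 on the minus strand, and its 490 bases match the Zfp42 transcript with 98.7% identity over 229 bases and 98.1% over 266. Of all 100-base windows of the pseudogene, 11.3% were identical to a stretch of any GENCODE transcript of Zfp42. The matching part holds the 76 bases amplified by the study's Rex1 primers for RT-qPCR, which lie within the coding sequence of Zfp42. With the 2 differences in capitals, they read as follows for Zfp42 at chr8:43749390-43749465 and for the pseudogene at chr15:93577421-93577496, both on the minus strand of GRCm39.
Zfp42: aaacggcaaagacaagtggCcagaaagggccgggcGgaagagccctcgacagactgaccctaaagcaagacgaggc
Zfp42-ps1: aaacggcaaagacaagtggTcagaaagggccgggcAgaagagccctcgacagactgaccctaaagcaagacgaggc
Against the pseudogene, the forward primer had 1 mismatch, at its last base, and the reverse primer had 0. Whether these primers amplify the pseudogene was not tested.

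Zfp42-ps1 had 8.13 CPM in WT replicate 1, the lowest, and 10.1 CPM in WT replicate 3, the highest of the 3, and 12.7, 13.4 and 17.4 CPM in KO replicates 1, 2 and 3. Like Zfp42, it was highest in KO replicate 3 and did not overlap between the groups. Its log2 fold change was 0.62 ± 0.17 (SE, adjusted p = 0.0165, edgeR), and without KO replicate 3 it was 0.47 (adjusted p = 0.114). In each library its counts were between 6.66% and 8.57% of those of Zfp42, with overlapping ranges in WT and KO. How reads with several matches were counted is not given in the sources used here, so the part of either count that came from the other locus was not tested.

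**Figure D3:**
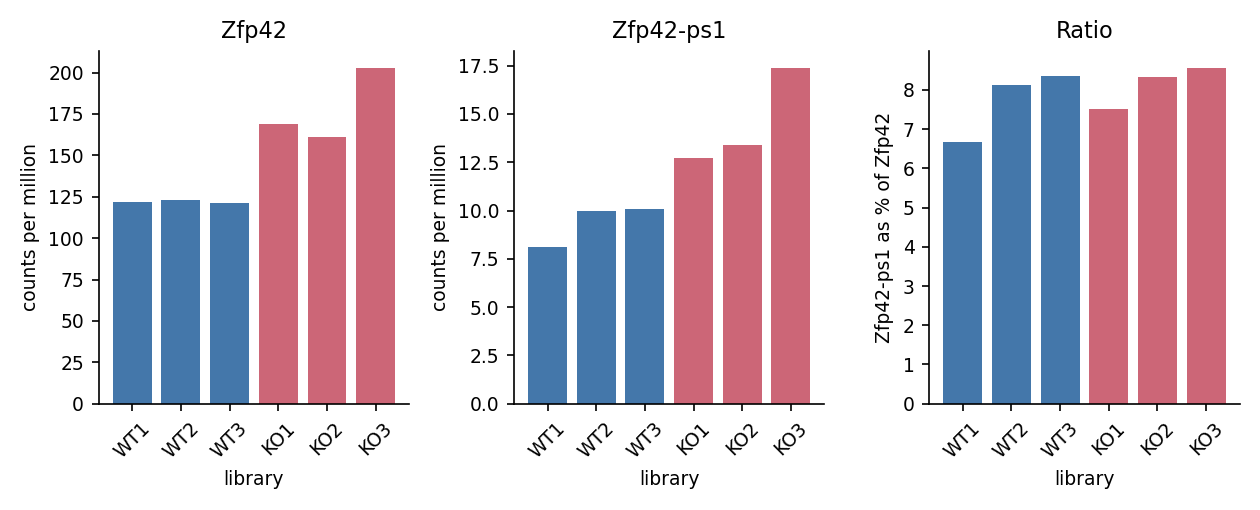
CPM of Zfp42 (left) and of its pseudogene Zfp42-ps1 (centre), and the second as a percentage of the first (right), for each library, with WT in blue and KO in red and axes from 0. Both genes are highest in KO3 at 203 and 17.4 CPM, while the percentage stays between 6.66 and 8.57.

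Among 18 paralogs and pseudogenes of the 10 genes, 7 passed the filter on low counts, 2 of them were higher in KO and 0 lower. Of all genes tested, 11.8% were called higher and 12.5% lower, and for so few genes 0 lower is near that background. Besides Zfp42-ps1, Sall2, a relative of Sall1 and Sall4, rose from 56.6 ± 4.44 to 73.2 ± 7.56 CPM (SD, n = 3 each). Its log2 fold change was 0.37 (adjusted p = 0.0211), and 0.28 without KO replicate 1 (adjusted p = 0.138). Yy1, the zinc finger factor from which Zfp42 and Yy2 derive, had a log2 fold change of 0.06 (adjusted p = 0.754), and Tfcp2 and Ubp1, relatives of Tfcp2l1, −0.32 (adjusted p = 0.109) and −0.03 (adjusted p = 0.904). Tfcp2 was called lower when replicate pairs were blocked (adjusted p = 0.0744) and had an unadjusted p of 0.0273 in the fit without the block. Mtcp1, a relative of Tcl1, had 0.31 (adjusted p = 0.336) and Tbx4, a relative of Tbx3, 0.11 (adjusted p = 0.875). Of the 11 below the filter, 7 had no count in any library, among them Yy2, Nanog-ps1, Nanog-ps2 and 4 of the 5 Tcl1b genes.

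Other naïve genes were read in the same fit to set the 6 naïve-restricted factors beside their network. Of 15 listed genes, 14 were tested, 6 rose and 0 fell, with a median log2 fold change of 0.40. Of all genes tested, 11.8% were called higher and 12.5% lower. Among the 6 that rose, Esrrb, an orphan nuclear receptor and target of Nanog, went from 15.9 ± 1.06 to 41.7 ± 9.79 CPM (difference 1.39 on the log2 scale). Klf2, a Krüppel-like factor, had 1.71, and Nr5a2, a nuclear receptor, had 2.27. Prdm14, a repressor of FGF signalling and DNA methylation genes, had 2.62, Gbx2, a homeobox factor downstream of LIF, had 1.09, and Tdh, threonine dehydrogenase, went from 16.4 ± 1.92 to 84.7 ± 8.07 CPM (difference 2.37). Adjusted p values for these 6 ran from 5.7e-10 to 0.00197, and each log2 fold change was above those of all 10 members. Klf2, Esrrb, Nr5a2, Prdm14 and Tdh were named by the study from these same samples, so their direction is not independent evidence. The 8 that did not pass, Klf4, Klf5, Nr0b1, Dppa3, Tet2, Pecam1, Zfp57 and Jam2, had log2 fold changes between −0.33 and 0.46. When replicate pairs were blocked, Zfp57 was called higher (adjusted p = 0.0432) and Klf5 lower (adjusted p = 0.0952), giving 7 and 1.

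Of 9 other general pluripotency genes, 5 rose and 0 fell, beside 11.8% and 12.5% of all genes tested. For so few genes, 0 lower is near that background. Of the 4 general members none was called, and these sets were not tested against each other. Dppa2, a chromatin-associated factor, rose by 1.13 and its partner Dppa4 by 0.80 on the log2 scale. Both lie close together on chromosome 16. Other genes of that chromosome were in the same fit, but their changes are not given here. A change shared along the chromosome is therefore not set apart from the rise of Dppa2 and Dppa4. Rif1, a telomere and replication timing factor, rose by 0.44, Sox2 by 0.42 and Cripto (Tdgf1), a Nodal co-receptor, by 0.40 on the log2 scale. Dppa2 was picked by the study on these samples, and the study counts it among factors of naïve pluripotency. Sox2 went from 123 ± 16 to 165 ± 34.0 CPM (SD, n = 3 each, adjusted p = 0.0283) with overlapping groups, and its call did not hold without KO replicate 3 (0.27, adjusted p = 0.206) or without WT replicate 1 (0.35, adjusted p = 0.111). Pou5f1, which encodes OCT4, had 898 ± 60.0 CPM in WT and 787 ± 36.8 CPM in KO, a difference of −0.19 on the log2 scale (adjusted p = 0.187). Lin28a and Gdf3 had −0.20 (adjusted p = 0.179 each) and Trim71 −0.16 (adjusted p = 0.288). When replicate pairs were blocked, Pou5f1 (adjusted p = 0.0665) and Lin28a (adjusted p = 0.0773) were called lower.

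**Figure D4:**
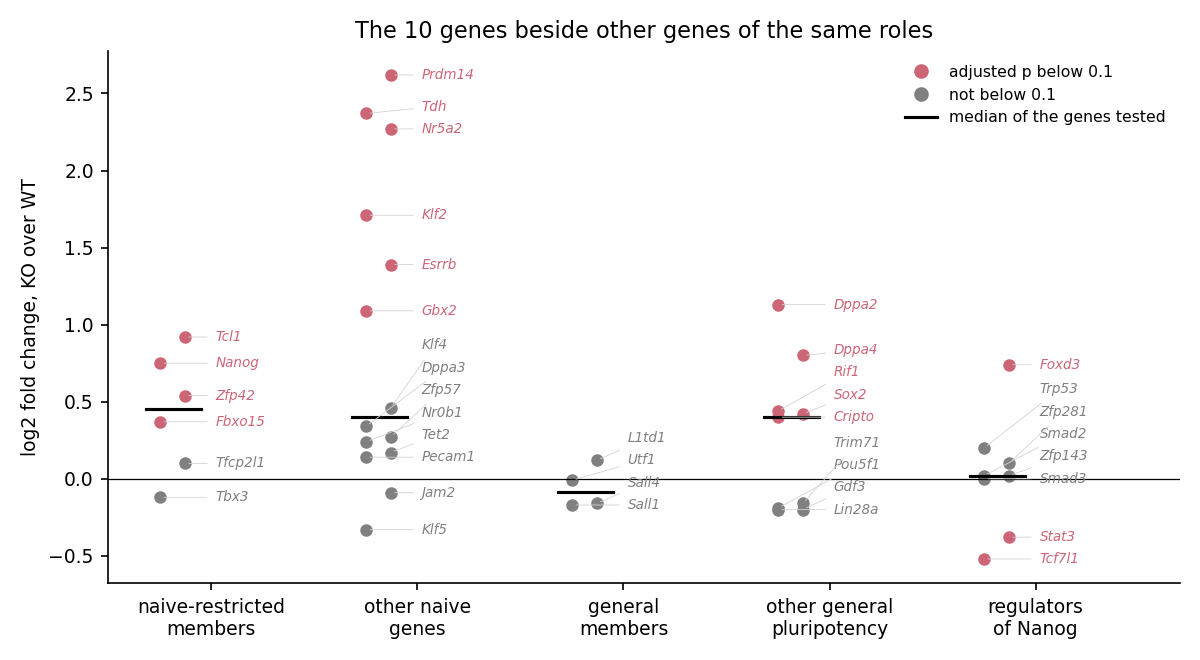
Log2 fold change, KO over WT, of the 10 genes and of the other naïve genes, the other general pluripotency genes and the regulators of Nanog, with 1 point per gene tested, red where the adjusted p was below 0.1, and a line at each median. The naïve-restricted genes reach 0.92 and the other naïve genes 2.62, and the general members lie between −0.17 and 0.12.

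Of 8 genes known to act on Nanog transcription, 1 rose and 2 fell, beside 11.8% and 12.5% of all genes tested. Foxd3, a forkhead activator of Nanog, rose from 21.2 ± 1.3 to 35.2 ± 12.3 CPM (SD, n = 3 each), with a log2 fold change of 0.74 (adjusted p = 0.00621). KO replicate 3 was apart, at 49.1 CPM against 26 and 30.5 CPM in KO replicates 1 and 2, and without it the log2 fold change was 0.42 (adjusted p = 0.0683). Stat3, the effector of LIF, went from 42.3 ± 1.48 CPM in WT to 32.6 ± 4.55 CPM in KO (−0.38 on the log2 scale, adjusted p = 0.0354), and the difference was −0.28 without KO replicate 2 (adjusted p = 0.194). Tcf7l1, a repressor of Nanog, had 6.58 ± 0.33 CPM in WT and 4.59 ± 0.396 CPM in KO and was called lower, with a difference of −0.52 on the log2 scale (adjusted p = 0.0923). The call of Tcf7l1 was lost in DESeq2 (adjusted p = 0.188), without a filter on low counts (adjusted p = 0.168) and in each of 6 fits with 1 library left out (adjusted p from 0.136 to 0.233). Zfp281, Zfp143, Trp53, Smad2 and Smad3 had log2 fold changes from −0.00 to 0.20 and did not pass.

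Nanog and Tcf7l1 lie on chromosome 6, where the median log2 fold change of 773 genes was −0.40. Within 10 Mb of Nanog the median of 179 genes was −0.04, so that Nanog stood 1.15 above its chromosome and 0.80 above its surroundings on the log2 scale. For the other 9 genes the chromosome median was between −0.04 and 0.04.

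The 3 nearest tested protein-coding genes on each side showed whether a rise was shared along the chromosome. Before Nanog, Apobec1, an RNA-editing enzyme, was higher in KO (log2 fold change 0.39, adjusted p = 0.0337, but 0.107 without KO replicate 1), while Gdf3, a TGF-β ligand, had −0.20 and Dppa3, a maternal factor of the naïve state, 0.34 (adjusted p = 0.179 and 0.362). After Nanog, Slc2a3, a glucose transporter 13.2 kb away, fell from 499 ± 88.6 to 292 ± 65.8 CPM (SD, n = 3 each), by 0.77 on the log2 scale (adjusted p = 7.2e-04). Foxj2 had −0.25 (adjusted p = 0.613) and Necap1 0.14 (adjusted p = 0.383). Of these 6 neighbours, Apobec1 and Slc2a3 were the ones called, in opposite directions.

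At Zfp42, both nearest tested genes on one side rose with it. Triml2, 96.9 kb away, went from 114 to 172 CPM (log2 fold change 0.60, adjusted p = 0.00675), and Triml1, 149 kb away, from 35.3 to 54.4 CPM (0.62, adjusted p = 0.00699). On the other side the nearest tested gene, Fat1, lay 1630 kb away and had a log2 fold change of −0.03 (adjusted p = 0.899). Fam149a, 2030 kb away, was called lower at 1.09 CPM in KO against 2.19 CPM in WT (adjusted p = 0.0618). That call was lost in DESeq2 (adjusted p = 0.157) and without WT replicate 1, KO replicate 2 or KO replicate 3 (adjusted p from 0.153 to 0.218).

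**Figure D5:**
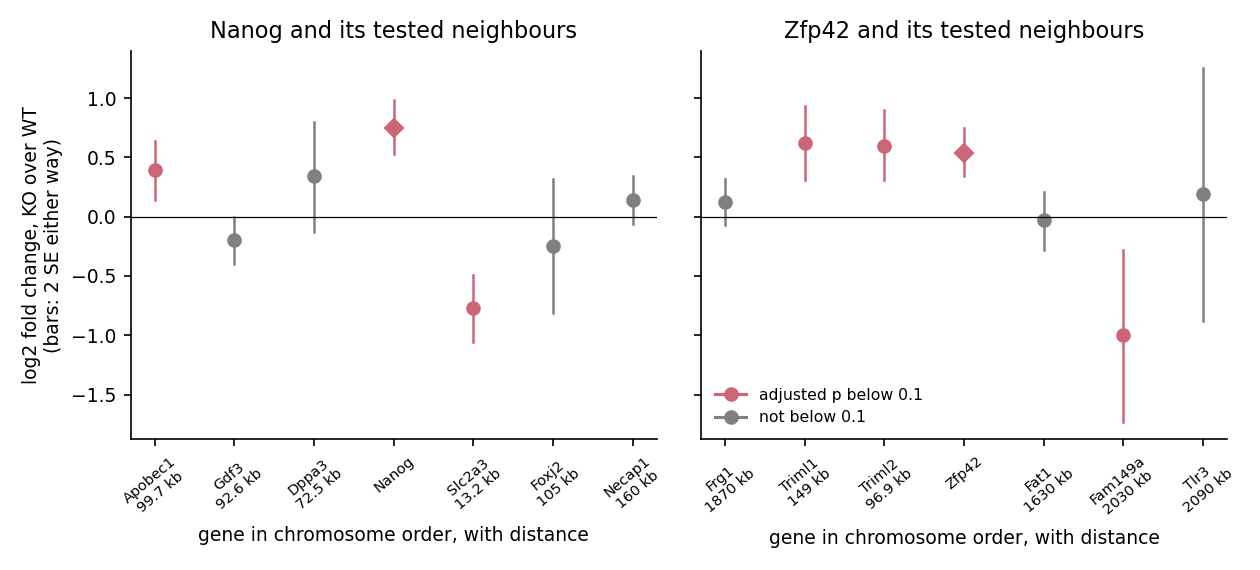
Log2 fold change, KO over WT, with bars of 2 SE either way, for Nanog (left) and Zfp42 (right), drawn as diamonds, and their nearest tested protein-coding genes in chromosome order, with the distance to each in kb, red where the adjusted p was below 0.1. Slc2a3, 13.2 kb from Nanog, lies at −0.77, and Triml2 and Triml1 lie at 0.60 and 0.62 beside Zfp42 at 0.54.

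Of the 60 neighbours of all 10 genes, 7 were called higher and 5 lower, where 11.8% and 12.5% of all genes tested were, a count near or below that background. When replicate pairs were blocked, the counts were 8 and 8. At 249 kb from Fbxo15, the dipeptidase gene Cndp2 rose by 0.51 (adjusted p = 0.00281), and 110 kb from Tcl1, Tunar, which was first described as a noncoding RNA of pluripotent cells, rose by 1.02 on the log2 scale (adjusted p = 0.0255), from 1.58 to 3.24 CPM. Inhbb, which encodes an activin subunit and lies 730 kb from Tfcp2l1, rose by 1.89 (adjusted p = 0.0176) from 0.314 to 1.24 CPM, and by 2.84 without WT replicate 3. Around the general genes, Kndc1 rose by 0.51 beside Utf1 (adjusted p = 0.0168, but 0.106 without KO replicate 3). Patj, a cell polarity gene 7.13 kb from L1td1, fell by 0.45 on the log2 scale (adjusted p = 0.00879), while L1td1 itself was not called. Inpp5a near Utf1 (−0.48, adjusted p = 0.0687) lost its call when WT replicates 2 or 3, or KO replicates 1 or 2, were left out (adjusted p from 0.144 to 0.267) or in DESeq2 (adjusted p = 0.102). Zfp64 near Sall4 (−0.27, adjusted p = 0.0851) was lost without each of WT replicates 1 and 2 and KO replicates 1 and 2, with adjusted p from 0.132 to 0.280, and without a filter on low counts (adjusted p = 0.11).

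Over the 6 libraries, the log2 CPM of Nanog and of Zfp42 had a Pearson r of 0.944, the highest among the 45 pairs of members. These libraries share the split into genotypes, and the r of deviations from the group means was 0.492. The 5 genes most like Nanog among 13228 were Plcd1 (r = 0.999), Aard (0.999), Kalrn (0.999), Gm13231 (0.997) and Plce1 (0.994). Plcd1 went from 4.67 ± 1.31 to 24.8 ± 7.74 CPM and Kalrn from 21.1 ± 1.91 to 38.1 ± 4.51 CPM (SD, n = 3 each). Kalrn lies on chromosome 16, as Dppa2 and Dppa4 do. The 5 most like Zfp42 were Nhsl1 (0.993), Gm4798 (0.991), Vwa8 (0.991), Fgfr2 (0.989) and 1700030C10Rik (0.989). Among them Fgfr2, a receptor for FGF, went from 32.9 ± 1.71 to 50.6 ± 7.11 CPM, whereas Vwa8 rose by no more than 0.30 on the log2 scale (adjusted p = 0.0632) and was not called without either of WT replicates 1 and 2 or KO replicates 1 and 3, or without a filter on low counts (adjusted p = 0.136). These r values rest on 6 points each.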

How the data were processed

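WT and Oct6 KO EpiLCs were sequenced at 48 h, 3 libraries each. Per the methods of the study, libraries were stranded and depleted of ribosomal RNA, reads were checked with FastQC, trimmed with Fastp and mapped with STAR (two-pass mode) to GRCm39. The authors deposited raw counts per gene, without normalization or a filter. The STAR version, annotation release, use of the strand and treatment of reads with several matches are not given in the sources used here. Identifiers were matched to GENCODE M39: 54749 of 55416 were found, and the other 667 held 0.0602% of the counts. Lengths and starts are those of M39, which may not be the release counted.

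Counts were tested in R 4.3.3 with edgeR 4.0.16 (TMM, filterByExpr with a minimum count of 10, quasi-likelihood test, genotype as the only term), with Benjamini-Hochberg adjustment over 15746 genes and calls at an adjusted p below 0.1, the threshold of the study. The script was tested on simulated data. CPM are relative to TMM-scaled totals, which ran from 10995505 to 14680930 counts before scaling (factors 0.974 to 1.02). The biological coefficient of variation was 11.7%. Standard errors stand beside the values, and they cover the spread of these libraries only. No library was a copy of another. Correlations used log2 CPM with a prior count of 2. Zfp42-ps1 was aligned to the canonical Zfp42 transcript with blastn 2.17.0.

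Samples were grouped by the genotype in their labels, with no unassigned sample. Replicates are described as paired by the submitters, and deviations from the group means, over 13078 genes, had correlations of 0.257, 0.298 and 0.122 for the same number and from −0.233 to −0.0379 for different numbers. The block on replicate number was an alternative fit.

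The members, lists, tests and alternatives were chosen with earlier results of these data known. The genes named were all members, the genes of 4 lists that passed (all tested genes where 10 or fewer of a list were tested), all neighbours of Nanog and those neighbours that passed, the 5 genes most like Nanog and Zfp42, and Pou3f1. Genes that did not pass in the other naïve list, paralogs below the filter, Timm21 and Fat1 were named in addition, after their values were seen. Alternatives were DESeq2 1.42.0, RLE size factors, library totals, TMM without chromosomes 6 and 16, no filter, 10 counts in every library, the block, calls at an adjusted p of 0.05, and fits that left out 1 library. Of the lists, 1 general pluripotency gene and 1 neural marker are not reported here.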

Additional observations from a re-analysis of the deposited data

How the results depend on the processing

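The count of 4 members called higher and 0 lower was the same with RLE size factors, library totals alone, TMM factors without chromosomes 6 and 16, no filter, a minimum of 10 counts in each library, an adjusted p below 0.05, the replicate block and DESeq2, and ran from 3 to 4 higher with each library left out. Of the values of single members under the alternatives, 137 stayed on their side of the threshold, 3 lost the call (Fbxo15 without WT replicate 1 and without KO replicate 3, Tcl1 without KO replicate 2) and none reversed a call. Other naïve genes called lower went from 0 to 1 (Klf5) under the replicate block, and ran from 0 to 1 with each library left out, 1 being without KO replicate 3. Other general genes called lower went from 0 to 2 under the replicate block and ran from 0 to 1 with each library left out, 1 being Pou5f1 without WT replicate 3. Besides the genes named beside their results, the block changed the calls of the neighbours Kank4, Ralb, Tm2d1 and Tox3, and of no other gene named. With at least 10 counts in every library, Prdm14 was not tested and 5 other naïve genes were called higher. The number of all genes called was 3833 in the fit described, 4764 with the replicate block and 3293 in DESeq2. The cause of these changes was not tested. The standard errors of Tbx3 and Tcl1, at about 2 to 7 CPM, were 0.31 and 0.27, above those of the other members, and the parts of depth and of spread between libraries in them were not separated.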
